A study of Danio rerio with 50 samples.

Results

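Olfactory sensory neurons (OSNs) detect odorants in the nose and send their axons to the olfactory bulb. Each OSN mainly expresses 1 odorant receptor (OR), and axons of OSNs with the same OR converge on the same target. In the young zebrafish bulb these targets are named protoglomeruli, of which the central zone (CZ) is one. The 3 bulk libraries described here were made from OSNs that project to the CZ and are 3 of the 50 libraries of the series, all 3 being members. The other 47 libraries are single OSNs, of which the 29 with an identified OR serve as the comparison (9 with a clade A, 10 with a clade B and 10 with a clade C receptor).

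Bulk cells came from 48 hpf embryos (hours post fertilization) of strain Tu/TLF carrying OMP:RFP together with or111-7:IRES:GAL4 and UAS:Citrine. OMP:RFP marks ciliated OSNs that express the olfactory marker protein, and GAL4 from the or111-7 transgene switches on Citrine. Cells with both colours were sorted, about 1000 for each of 3 independent experiments, and ERCC spike-ins were added. The single OSNs came from 48 hpf Tu/TLF embryos with OMP:RFP alone and were captured one by one; 18 of the 29 held ERCC and 11 held Fluidigm spike-ins. The or111-7 transgene labels OSNs projecting to the CZ and, aberrantly, to another target (LG1). The study reports that the doubly coloured cells send axons to the CZ only. The sample labels themselves call these libraries OMP positive bulk cells, and the reporter used in the sort is known from the study's text only. The transgene carries or111-7 itself, so reads from it and from the endogenous gene cannot be told apart. The pools and the single OSNs came from separate sorts and preparations, so kind of sample and preparation cannot be told apart in any difference between them. Fewer cells of a type and less RNA per cell cannot be told apart either.

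The libraries held 2651985, 6250589 and 5320049 counts on 29033 genes, and are called libraries 1, 2 and 3, numbers that only name them. Values are counts per 1000000 counts of the library (CPM), and so give the share of a library's counts that fell on a gene. They are not corrected for transcript length, so that a long transcript takes a larger share than a short one at equal numbers. At least 10 CPM was reached by 5728, 8383 and 9161 genes in libraries 1, 2 and 3, against 744 to 2326 genes (median 1623) in the single cells. Library 1 held the fewest genes also at equal depth: after thinning to 2651985 counts each, 11377, 15824 and 17444 genes had a count in libraries 1, 2 and 3.

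The 3 libraries had much of their most abundant transcripts in common. Of the 100 genes with most counts in a library, 68 were in the 100 of all 3, and 38 of these 68 encode ribosomal proteins. The 100 genes with the highest mean in the single cells held 0 ribosomal protein genes, 8 chaperones, 7 calcium-binding proteins and 2 genes with an OR symbol, and 21 of the 68 were among them. Across the 20583 genes detected in any bulk library, log2(CPM + 1) correlated at r = 0.833 between libraries 2 and 3, 0.728 between 1 and 2, and 0.714 between 1 and 3. Correlation with the mean of the single cells was 0.596 for library 1, 0.645 for library 2 and 0.649 for library 3. These correlations are across genes, which are not independent replicates. Over the 8517 genes with a mean of 10 CPM or more they were 0.742 for libraries 2 and 3, but 0.473 for 1 and 2 and 0.453 for 1 and 3. Library 1 was the one that stood apart: 2452 of these genes were at least 4-fold lower in it than in both others, against 183 for library 2 and 101 for library 3. Of the same genes 612 had 0 counts in library 1, 85 in library 2 and 32 in library 3.

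The most abundant transcript in every bulk library was pvalb5, a parvalbumin that binds calcium. It took 64375 CPM in library 1, 36668 in library 2 and 39638 in library 3, against a mean of 21772 CPM in the single cells, where it also ranked first and reached 10 CPM in 29 of 29. Library 1 was the highest of the bulk libraries, and all 3 lay above the mean of the cells. The highest single cell had 42948 CPM, below library 1 and above libraries 2 and 3. The second in mean rank was eef1a1l1, an elongation factor that brings aminoacyl-tRNA to the ribosome, at 5746, 7913 and 7942 CPM in libraries 1, 2 and 3 against 1727 CPM in the cells. The cytosolic chaperone hsp90ab1 had 5729, 8327 and 6969 CPM in bulk against 2938 CPM in the cells. Both genes varied less than 1.5-fold among the libraries.

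Other leading genes were at a similar share in both kinds of sample or varied among the libraries. Glutathione S-transferase pi gstp1, a detoxifying enzyme, was at 3981, 4356 and 3985 CPM in bulk and 5001 CPM in the cells. The histone H3.3 gene h3f3b.1 had 2297, 2405 and 2997 CPM in bulk and 2426 CPM in the cells. Both varied less among the libraries than pvalb5 did. By contrast the heat-inducible chaperone hsp70l had 8601 and 9353 CPM in libraries 1 and 2 but 2118 CPM in library 3, against a mean of 5247 CPM in the cells. Within the cells hsp70l averaged 1996 CPM in those with ERCC and 10566 CPM in those with Fluidigm spike-ins, so that it varied as widely there. A second gene with such a spread was tnks1bp1, at 7260, 3981 and 1624 CPM in bulk against 619 CPM in the cells, and acin1a was another, at 6129, 6447 and 2538 CPM in bulk against 744 CPM. In all 3 of these genes library 3 was the lowest.

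**Figure D1:**
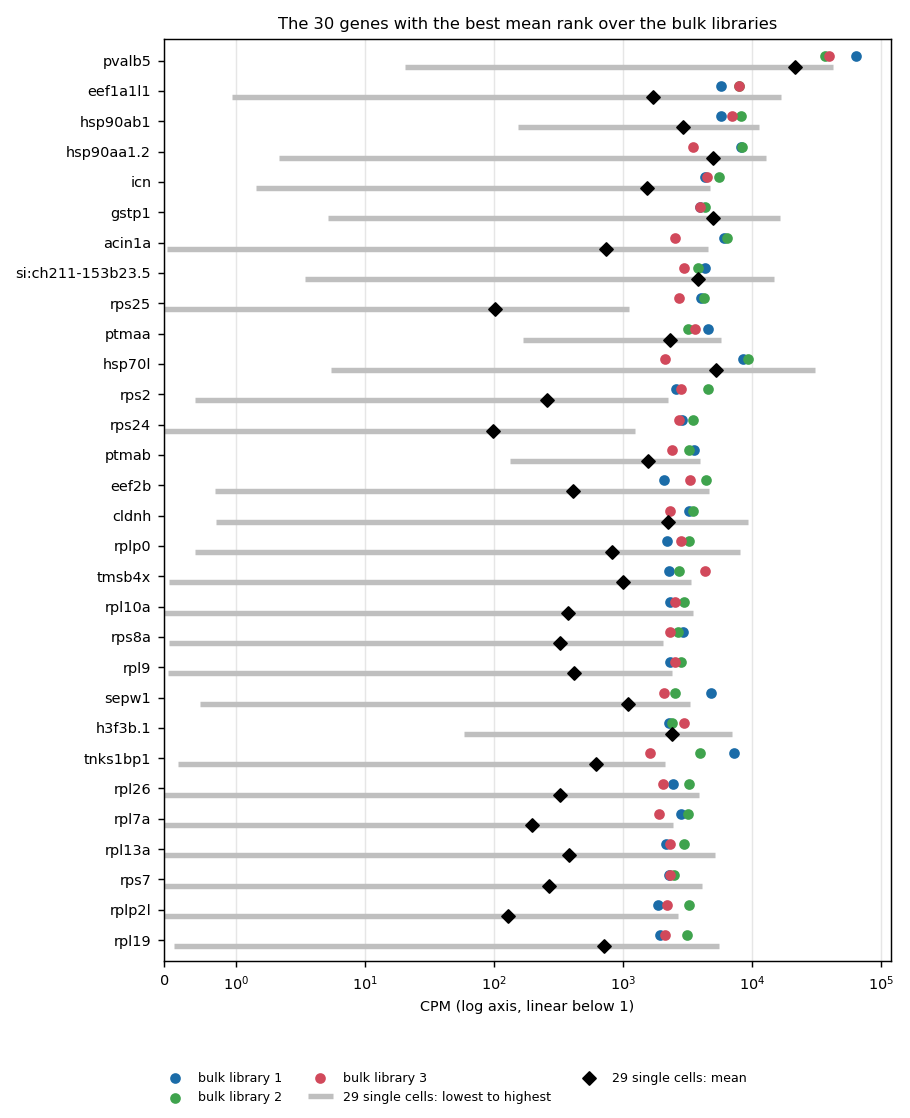
The 30 genes with the best mean rank over the 3 bulk libraries, in that order from the top. Circles give the CPM of a gene in each bulk library, the diamond under them the mean and the grey bar the range over the 29 single cells, on a log axis that is linear below 1 CPM; pvalb5 leads in both kinds of sample, while rps25 and rps24 lie to the right of the whole range of the cells.

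Genes were then counted as higher or lower in bulk by a fixed size of difference, without a test. A gene was counted where it was at least 4-fold higher, or lower, in each of the 3 libraries than the mean of the 29 cells, after adding 1 CPM to both. Over the 10584 genes with a mean of at least 10 CPM in bulk or in the cells, 1289 (12.2%) were counted as higher and 1596 (15.1%) as lower. Genes could reach that mean on a single side only, the side where they were high. Of the 1289, 1188 were also counted against the ERCC cells alone, 1130 against the Fluidigm cells alone and 1029 against both. Against the Fluidigm cells alone 15.2% of all genes were counted as lower. Of the 1596 lower genes 302 were counted against both sets, so that the lower genes depended far more on which cells were taken. The split between higher and lower turned without library 1, where 2671 genes (24.4%) were higher and 1864 (17%) lower. It also depended on the scale. With edgeR's TMM scaling 493 genes were higher and 9167 lower, and with DESeq2 size factors 706 and 5876, because the median log2 ratio of all genes moved to -4.90 and -3.07, against -0.48 with CPM. Centred on that median the numbers were 1591 higher and 1185 lower with CPM, 2345 and 1544 with TMM, and 2551 and 1668 with DESeq2. All levels and sums in what follows are therefore shares of counts.

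Ribosomal protein genes formed the largest class in bulk. Their products make up the protein part of the cytosolic ribosome. The 81 genes took 111981, 145795 and 124353 CPM in libraries 1, 2 and 3, which is 12.7% of counts on average, against a mean of 19867 CPM in the cells (lowest 1522, median 11437, highest 203918). In the cells with ERCC spike-ins the highest sum was 19029 CPM and the mean 9332 CPM. Cells with Fluidigm spike-ins averaged 37105 CPM, and 1 of the 29 cells was at or above the lowest bulk library. Of 80 ribosomal genes in the comparison 55 were counted as higher in bulk, beside 12.2% of all genes, and 1 as lower; the lower one, rps6kl1, is not a ribosomal protein and entered the list through its name. Against ERCC cells alone 73 were counted as higher, beside 17.5% of all genes, and against Fluidigm cells alone 31, beside 21.7%. The sum in bulk was 13.6 times that of the ERCC cells and 3.43 times that of the Fluidigm cells. A single Fluidigm cell, at 203918 CPM, carried much of the Fluidigm mean: without it the other 10 Fluidigm cells averaged 20424 CPM, bulk was 6.24 times as high, and 52 of 80 genes were counted as higher, beside 24.7% of all genes. Without it the 28 remaining cells of both sets averaged 13293 CPM, and bulk was 9.58 times as high, with 64 of 80 counted, beside 13.4%.

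Among single ribosomal genes the widest gap of the leading 30 was that of rps25, with 4043, 4248 and 2729 CPM in bulk against 102 CPM in the cells, a 35.98-fold difference of means. The next was rps24, with 2874, 3497 and 2747 CPM in bulk against 97.9 CPM. In the cells rps25 reached 10 CPM in 11 of 29 and rps24 in 10 of 29, whereas pvalb5 did in all. The stalk protein gene rplp0 was the least different of this class among the leading genes, with 2187, 3257 and 2826 CPM in bulk against 826 CPM in the cells, a 3.34-fold difference of means.

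Translation factors were the fourth largest class, with 19155, 26952 and 23647 CPM against 9788 CPM in the cells, and 14 of 72 counted as higher and 4 as lower, beside 12.2% and 15.1% of all genes. Only 61 of the 72 had a mean of 10 CPM or more in the cells, so the others entered through bulk alone. The 6 leading members were chosen by their level in bulk, which favours higher genes, and 4 of them were counted as higher. They were eef2b, which moves the ribosome along the mRNA (2107, 4428 and 3348 CPM in bulk against 414 CPM in the cells), and 3 subunits of elongation factor 1. The subunit eef1g had 1622, 2319 and 2089 CPM in bulk against 173 CPM in the cells.

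**Figure D2:**
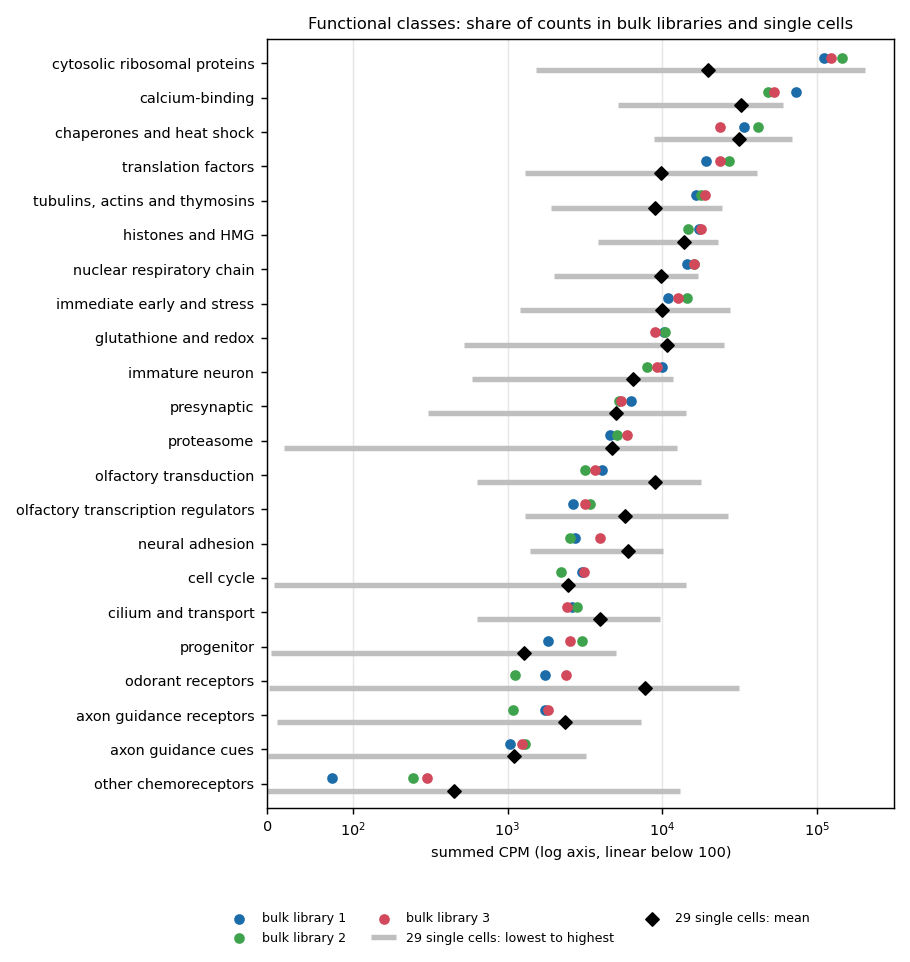
Summed CPM of 22 functional classes, ordered by their mean in bulk. Circles give each bulk library, the diamond below them the mean and the grey bar the range over the 29 single cells, on a log axis that is linear below 100 CPM; ribosomal proteins lead in all 3 bulk libraries, and odorant receptors and olfactory transduction lie left of the mean of the cells.

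Calcium-binding proteins were the second largest class, at 73789, 48646 and 52936 CPM in bulk against 32508 CPM in the cells, and most of it was pvalb5. Apart from pvalb5 and icn, the calmodulin gene calm2b was at 1051, 1803 and 1425 CPM in bulk and 1125 CPM in the cells. The calretinin gene calb2a, which buffers calcium in many neurons, had 818 and 1159 CPM in libraries 1 and 2 and 3051 CPM in library 3, against 2025 CPM in the cells. That mean was 783 CPM in the ERCC cells and 4058 CPM in the Fluidigm cells. Of 26 members in the comparison 7 were counted as higher and 2 as lower, beside 12.2% and 15.1% of all genes. The lower ones were the neuronal calcium sensors ncalda, with 15.1, 19.998 and 59.8 CPM in bulk against 1026 CPM, and hpcal4. Only 17 of the 26 had a mean of 10 CPM or more in the cells, so the others entered through bulk alone.

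Chaperones and heat shock proteins followed, with 34024, 41681 and 23790 CPM against 31653 CPM in the cells. As higher 5 of 68 were counted and as lower 6, both smaller shares than the 12.2% and 15.1% of all genes. The constitutive hspa8 was at 1515, 2509 and 2181 CPM in bulk and 4298 CPM in the cells. Against ERCC cells the sum was 1.35 times as large in bulk and against Fluidigm cells 0.766 times. Immediate early and stress genes had 10889, 14386 and 12585 CPM in bulk and 9919 CPM in the cells, with 9 of 35 counted as higher and 0 as lower, beside 12.2% and 15.1% of all genes. Only 25 of the 35 had a mean of 10 CPM or more in the cells, so the others entered through bulk alone. The transcription factor jun had 1085, 1688 and 1663 CPM in bulk and 1563 CPM in the cells. Its partner fosab had 650, 1458 and 1924 CPM in bulk and 1372 CPM in the cells, with 327 CPM in the ERCC cells and 3080 CPM in the Fluidigm cells. Neither gene was past the fold, whereas klf6a, another transcription factor of the list, was counted as higher, with 773, 591 and 372 CPM in bulk against 89.9 CPM.

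The lists of the respiratory chain, the proteasome and the cytoskeleton had sums in bulk of 1.1 to 1.97 times those of the cells. The glutathione and redox list was at 0.920 times, with 3 of 28 higher and 0 lower, beside 12.2% and 15.1% of all genes. The nuclear genes of the respiratory chain took 14492, 16025 and 16146 CPM in bulk and 9796 CPM in the cells, with 8 of 79 higher and 0 lower, beside 12.2% and 15.1% of all genes. The cytochrome c gene cycsb was one of the 8, at 547, 1221 and 441 CPM in bulk against 53.8 CPM. Proteasome subunits had 4631, 5089 and 5929 CPM in bulk and 4753 CPM in the cells, and 4 of 45 were higher and 1 lower, beside the same shares of all genes (12.2% and 15.1%). Both classes were steady across the bulk libraries. Tubulins, actins and thymosins summed to 16621, 17821 and 18953 CPM in bulk and 9056 CPM in the cells. Within this class tuba1a was uneven: it had 3733 CPM in library 1, 1528 in library 2 and 826 in library 3, against 336 CPM in the cells, while actb2 ran the other way with 404, 1289 and 2456 CPM in bulk against 521 CPM. For actb2 the mean was 50.7 CPM in the ERCC cells and 1290 CPM in the Fluidigm cells.

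Odorant receptors took a smaller share in bulk than the mean of the cells, and were spread over many genes. In a ciliated OSN an OR couples to the G protein subunit encoded by gnal, and cAMP made by adenylate cyclase opens a cyclic nucleotide-gated channel. The 142 OR genes summed to 1743, 1114 and 2373 CPM in libraries 1, 2 and 3, against a mean of 7753 CPM in the cells. Sums of the cells ran from 2.09 to 31247 CPM with a median of 5353. The genes were taken by their OR symbols, which left out zgc:152857 (or119-1), in the study the main receptor of 1 of the 29 cells. That cell has the lowest sum, 2.09 CPM, and the mean of the cells is too low for this reason. All OR sums, shares and ranks given here are without this gene. The cells had been included because an OR was identified in them. Below the bulk library lay 10, 8 and 10 of the 29 cells for libraries 1, 2 and 3. Each of these counts includes the cell whose main receptor was not in the list. Near-identical ORs may share reads, so subfamily sums are given beside single genes.

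The receptor whose promoter drove the reporter, or111-7, had 98.0 CPM in library 1, 34.7 in library 2 and 33.6 in library 3. It averaged 0.01001 CPM in the 29 cells, and the highest of all 47 cells was 0.214 CPM. So each bulk library was above every single cell, but or111-7 was not the leading receptor in any of them, being the 5th, 10th and 19th OR by CPM. The marker ompb, the olfactory marker protein gene, had 392, 158 and 168 CPM in bulk against 824 CPM in the cells, 26 of which reached 10 CPM. Library 1 was the highest for both markers.

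The leading receptor differed between the libraries. It was or125-4 in library 1, at 629 CPM and 36.1% of all OR counts, against 83.8 and 99.999 CPM in libraries 2 and 3. In library 2 it was or112-1, at 167 CPM and 14.95% of OR counts, and this gene was also high in libraries 1 and 3 (295 and 197 CPM). In library 3 it was or111-11, at 220 CPM and 9.26% of OR counts, which had 116 CPM in library 2 but 2.64 CPM in library 1. The clade B receptor or125-4 and the clade A receptor or112-1 averaged 1018 and 957 CPM in the cells, each from 2 cells that reached 10 CPM. A further gene almost absent from library 1 was or132-5, with 2.26, 159 and 187 CPM in libraries 1, 2 and 3. In the cells or132-5 averaged 1078 CPM, from a single cell.

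By clade, A receptors held 42.04% of OR counts in library 1 (exact 95% binomial interval 40.6 to 43.5%), 51.0% in library 2 and 48.8% in library 3. Clade B held 51.4%, 33.2% and 37.3%, and clade C 6.51%, 15.8% and 13.9%. The clade B receptor zgc:152857 (or119-1) was not in the list, so these are shares of the listed genes only. Clade A was thus the largest in libraries 2 and 3 and clade B in library 1. The mean share of clade A was 47.3% ± 4.66 (SD, n = 3) and that of clade B 40.6% ± 9.57 (SD, n = 3). Intervals cover counting error only, as reads carry no molecular identifiers. The 142 listed genes comprise 57 of clade A, 53 of clade B and 32 of clade C, and the shares of counts were not tested against these numbers. Of the 142 genes 16 had at least 10 counts in all 3 libraries (7 of clade A, 8 of clade B and 1 of clade C), and 52 had 0 counts in all 3.

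The or111 subfamily, to which the reporter belongs, held 7.33%, 20.6% and 20.6% of OR counts in libraries 1, 2 and 3. The or125 subfamily held 46.6%, 14.95% and 15.03%, so that it was above or111 in library 1 and below it in libraries 2 and 3. Of the 11 or111 genes or111-7 was the highest in library 1, followed by or111-6 with 24.9 CPM. In library 3, or111-3 had 70.3 CPM, or111-5 had 55.1 CPM and or111-6 had 51.3 CPM, all above the 33.6 CPM of or111-7. The same genes had 15.04, 5.28 and 8.32 CPM in library 2, below or111-7. No count fell on or111-8 or or111-9 in any bulk library, which allows up to 1.13, 0.480 and 0.564 CPM in libraries 1, 2 and 3. Beyond ORs, the trace amine receptor taar14h had 64.9, 81.4 and 85.3 CPM in bulk and a mean of 450 CPM in the cells, from 1 cell. The ora3 gene, an olfactory receptor of another family, had 9.43, 29.8 and 48.9 CPM in bulk against 0.00748 CPM in the cells.

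**Figure D3:**
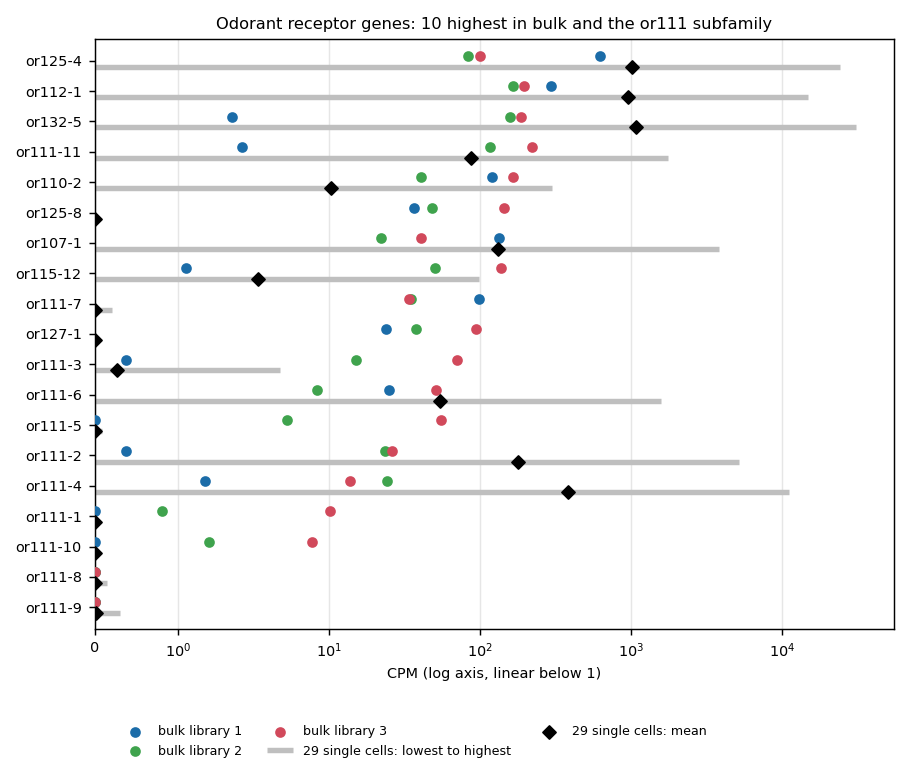
CPM of the 10 odorant receptors highest in bulk and of all or111 genes. Circles give each bulk library, the diamond below them the mean and the grey bar the range over the 29 single cells, on a log axis that is linear below 1 CPM; or111-7 lies at 33.6 to 98.0 CPM in bulk, above every cell, and or132-5 and or111-11 are low in library 1 only.

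The machinery behind the receptor was likewise at a smaller share in bulk. The 17 transduction genes summed to 4077, 3184 and 3696 CPM, against 9048 CPM in the cells (lowest 636, median 9215, highest 17823), and 6 of the 29 cells were at or below the highest bulk library. None of the 14 in the comparison was counted as higher and 3 were lower, beside 12.2% and 15.1% of all genes. Against the Fluidigm cells alone 0 of 12 were lower, beside 15.2% of all genes. The study had classed the 29 cells as mature by high gng13b, gnal, ompb and cnga4, in a clustering that also used cnga2, ano2 and adcy3b. The levels of all these genes in the cells, adcy3b included, were in part set by that choice. The G protein alpha subunit gnal had 448, 113.7 and 147 CPM in bulk against 1689 CPM in the cells. The gamma subunit gng13b had 287, 305 and 808 CPM in bulk against 1863 CPM. Adenylate cyclase adcy3b was one of the lower genes, with 8.67, 60.6 and 28.01 CPM against 394 CPM. The channel subunit cnga4 did not share this direction, with 474, 394 and 210 CPM in bulk and 277 CPM in the cells. Of the 7 measured markers of ciliated OSNs 6 reached 10 CPM in all 3 libraries, adcy3b being the exception. Among the 6 are or111-7 and the olfactory marker protein gene ompb. The sort used reporters of this receptor and of the marker protein, so their presence was in part set by it.

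**Figure D4:**
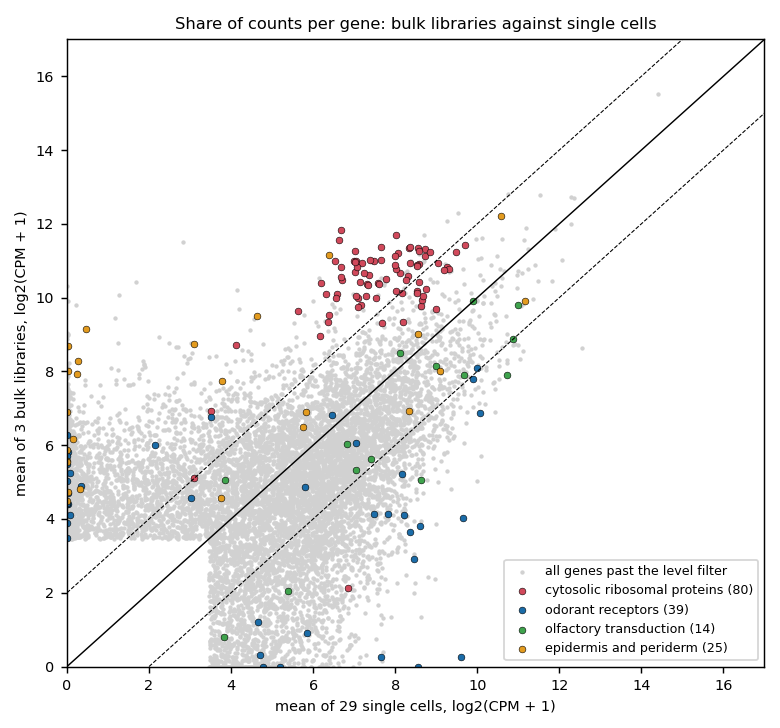
Mean log2(CPM + 1) of the 3 bulk libraries against that of the 29 single cells, for the genes with a mean of at least 10 CPM in either. Coloured points are members of 4 lists, the solid line marks equal shares and the dashed lines a 4-fold difference; ribosomal proteins lie mostly above the upper dashed line and olfactory transduction genes mostly below the solid line.

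Transcription regulators of olfactory neurons had 2642, 3395 and 3167 CPM in bulk and 5741 CPM in the cells. The factor ebf3a, of a family that acts in OSN differentiation, had 504, 519 and 723 CPM in bulk and 566 CPM in the cells. Its relative ebf1b was lower in bulk, with 169, 104 and 149 CPM against 1057 CPM, and was the 1 lower gene of 26. A further 5 were counted as higher, the counts standing beside 12.2% and 15.1% of all genes; among them was six1b, a placode gene, with 63.7, 256 and 49.8 CPM in bulk and 0.0289 CPM in the cells. Another was nhlh2, with 56.2, 203 and 221 CPM in bulk and 2.89 CPM in the cells. Only 17 of the 26 had a mean of 10 CPM or more in the cells, so the others, six1b and nhlh2 among them, entered through bulk alone.

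Genes of immature neurons and progenitors were present in all 3 libraries. The immature list summed to 9945, 7964 and 9228 CPM in bulk and 6445 CPM in the cells, with 7 of 24 counted as higher and 1 as lower, beside 12.2% and 15.1% of all genes. Only 19 of the 24 had a mean of 10 CPM or more in the cells, so the others, gng8 and gap43 among them, entered through bulk alone. Relative to the median of all genes the log2 ratio of this sum, bulk over cells, was 0.96, but against the Fluidigm cells alone it was -0.28. The 29 cells had been classed as mature in part by low gng8 and gap43, and cells high in these were left out, so that the low values in the cells were set by that choice. Gng8, which marks immature OSNs, had 32.1, 133 and 277 CPM in bulk and 0.0139 CPM in the cells. The growth cone gene gap43 had 14.3, 198 and 78.0 CPM in bulk and 0.360 CPM in the cells, but the methods name the Citrine reporter as gap43-citrine, and whether its transcript adds to this count was not tested. The neuronal RNA-binding gene elavl3 was the other way round: it had 439, 220 and 295 CPM in bulk and 1690 CPM in the cells. The progenitor list summed to 1832, 3042 and 2525 CPM in bulk and 1268 CPM in the cells. Of 17 genes in the comparison 11 were higher, beside 12.2% of all genes, and 0 lower. Only 7 of the 17 had a mean of 10 CPM or more in the cells, so the others entered through bulk alone. The leading member of the list, insm1a, had less in bulk, with 507, 425 and 509 CPM against 664 CPM in the cells. Neither btg2 (157, 400 and 533 CPM in bulk, 308 CPM in the cells) nor insm1b (119, 378 and 371 CPM in bulk, 224 CPM in the cells) was past the fold. The hairy-related repressors her9 (40.3, 651 and 202 CPM in bulk) and her6 (96.5, 531 and 170 CPM in bulk) were low in library 1 and high in library 2, against 0.0354 and 2.56 CPM in the cells. In the highest of all 47 cells her9 had 791 CPM. The proneural gene neurod1 was even, with 128.2, 93.4 and 139 CPM in bulk and 14.3 CPM in the cells, whereas neurog1 had 0, 3.20 and 3.95 CPM in bulk. The cell cycle list summed to 3024, 2205 and 3105 CPM in bulk and 2460 CPM in the cells. Of 25 genes in the comparison 12 were higher and 0 lower, beside 12.2% and 15.1% of all genes. Only 9 of the 25 had a mean of 10 CPM or more in the cells, so the others entered through bulk alone. The marker of dividing cells mki67 had 122, 77.9 and 160 CPM in bulk against 2.89 CPM. Other members had less in bulk than the mean of the cells: hmgb2a had 655, 526 and 1079 CPM against 1361 CPM, and the replication clamp gene pcna had 125, 165 and 253 CPM against 290 CPM, neither past the fold. The mean of pcna came from few cells, as 3 of 29 reached 10 CPM, whereas 27 did for hmgb2a. The same libraries held markers of cells other than OSNs, and what they contributed to these 3 lists was not tested.

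Lists for wiring, synapses and cilia had sums in bulk of 0.508 to 1.12 times those of the cells. The presynaptic list had 6301, 5278 and 5404 CPM in bulk and 5065 CPM in the cells. Its leading gene sncb, a synuclein, was counted as higher, with 2280, 2078 and 1665 CPM in bulk against 407 CPM in the cells. Axon guidance receptors summed to 1735, 1080 and 1833 CPM in bulk and 2342 CPM in the cells, with 4 of 37 higher and 4 lower, close to the 12.2% and 15.1% of all genes. The netrin and RGM receptor neo1a was uneven, with 509, 61.3 and 120 CPM in bulk and 50.2 CPM in the cells. The same was true of the ephrin receptor epha3, with 233, 29.1 and 42.9 CPM in bulk and 255 CPM in the cells. The Wnt receptor fzd3a was counted as higher, with 106, 53.3 and 130 CPM in bulk against 8.99 CPM. It entered the comparison through bulk alone, as its mean in the cells was under 10 CPM. Adhesion genes had 2722, 2532 and 3935 CPM in bulk and 6033 CPM in the cells. Of the 29 cells, 28 were at or above the lowest bulk library and 7 at or below the highest. Of 41 adhesion genes in the comparison 3 were higher and 5 lower, beside 12.2% and 15.1% of all genes. The neurexin nrxn1a was counted as lower, with 267, 263 and 438 CPM in bulk against 2115 CPM, while the cell adhesion molecule ncam1a had 790, 600 and 989 CPM in bulk and 265 CPM in the cells. A protocadherin, pcdh10b, had 179, 162 and 164 CPM in bulk and 0.111 CPM in the 29 cells, though 1508 CPM in the highest of all 47. Ciliary genes had 2609, 2806 and 2429 CPM in bulk and 3946 CPM in the cells, with 1 of 38 higher and 2 lower, beside 12.2% and 15.1% of all genes.

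Among all genes counted as lower, the one with the highest mean in the cells was sqstm1, an autophagy receptor, with 344, 491 and 345 CPM in bulk against 6015 CPM. It was steady in the bulk libraries and reached 10 CPM in 26 of 29 cells. The secreted olfactomedin olfm1b had 425, 354 and 470 CPM in bulk against 2031 CPM, and atf5a, a transcription factor that in mouse acts in OSN maturation, had 176, 35.997 and 140 CPM against 1370 CPM. Hydin, needed for motile cilia, had 141, 109 and 161 CPM in bulk against 1174 CPM.

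Markers of other cell types were found in the bulk libraries, and differed between them. The list of epidermis and periderm, the outer cell layers of the embryo, was the highest, with 10532, 17232 and 10419 CPM against 5335 CPM in the cells. Of 25 genes in the comparison 13 were counted as higher and 0 as lower, beside 12.2% and 15.1% of all genes. Only 11 of the 25 had a mean of 10 CPM or more in the cells, so the others entered through bulk alone. The largest part of the list's sum was icn, a calcium-binding protein. It was at 4333, 5526 and 4520 CPM in bulk and 1539 CPM in the cells, where 26 of 29 reached 10 CPM. The keratins were of another kind: krt4 had 1883, 3683 and 1253 CPM in bulk against 82.0 CPM, and krt5 had 198, 374 and 193 CPM against 0.0186 CPM. Epcam, shared by many epithelia, had 654, 1321 and 895 CPM in bulk and 2304 CPM in the cells. Of 28 measured genes in this list 20 reached 10 CPM in all 3 libraries and 1 had 0 counts in all.

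Library 3 held blood transcripts that the others nearly lacked. The 10 blood genes summed to 81.1, 32.5 and 9392 CPM in libraries 1, 2 and 3, against 130 CPM in the cells. That mean was 0.0313 CPM in the ERCC cells and 344 CPM in the Fluidigm cells. The embryonic globin hbbe1.1 alone had 28.3, 6.56 and 4370 CPM, and 5 of the 10 genes with the largest range over the bulk libraries were globins. Library 3 was also highest for leukocyte genes (202, 59.4 and 892 CPM in bulk and 56.4 CPM in the cells) and for cartilage, bone and mesenchyme (219, 197 and 1850 CPM in bulk and 39.8 CPM in the cells). The apolipoprotein apoeb, which made up nearly all of the yolk and liver list and is also expressed by macrophages, had 413, 196 and 2268 CPM in bulk and 0.0104 CPM in the cells. The glial fatty acid binding protein fabp7a had 539, 284 and 1865 CPM in bulk and 0.159 CPM in the cells. Its list, of retinal and brain neurons or glia, was also highest in library 3, with 2086, 1806 and 3679 CPM in bulk and 3329 CPM in the cells. Unlike fabp7a, this list was below the mean of the cells in libraries 1 and 2. Of 12 genes of that list in the comparison 1 was higher and 1 lower, beside 12.2% and 15.1% of all genes. Library 2 was highest for pigment cells and neural crest (15.1, 821 and 215 CPM in bulk and 19.8 CPM in the cells), mostly through gch2, at 10.9, 722 and 131 CPM in bulk. The part of these cells in any class above was not tested.

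Of other sensory cells of the nose, the 5 microvillous OSN markers summed to 1315, 954 and 1199 CPM in bulk and 1340 CPM in the cells. Of these 5, 1 was counted as higher and 1 as lower, close to the 12.2% and 15.1% of all genes. The channel gene trpc2a was the lower one, with 0, 4.16 and 1.13 CPM in bulk against 50.5 CPM, while trpc2b had 0, 59.0 and 8.65 CPM in bulk and 3.15 CPM in the cells. The G protein gene gnaia was the higher one, with 29.8, 136 and 104 CPM in bulk and 2.93 CPM in the cells, whereas gnao1b had 95.8, 325 and 376 CPM in bulk and 806 CPM in the cells. The remaining marker, gnao1a, was the largest of the 5 in each bulk library, while gnao1b was the largest in the cells. Neither gnao1a nor gnao1b was past the fold. The gene s100z, of the crypt neuron list, was abundant, with 624, 965 and 1542 CPM in bulk and 320 CPM in the cells. It reached 10 CPM in 10 of the 29 cells, the highest at 2585 CPM, so it was also present in OSNs with an OR. The crypt neuron receptor ora4 had 0, 23.04 and 1.88 CPM in bulk and 0.0308 CPM in the cells. The 2 hormone genes of the terminal nerve list summed to 292, 10.4 and 202 CPM in bulk and 270 CPM in the cells. Its gnrh3 had 291, 0.640 and 179 CPM in bulk and 0.0518 CPM in the 29 cells, though 2680 CPM in the highest of all 47. Its gnrh2 was counted as lower, with 0.754, 9.76 and 22.4 CPM in bulk against 270 CPM. This mean, and that of the list, came from 1 cell, in which the list summed to 7820 CPM, while the median of the cells was 0. The muscle list had 4.52, 49.3 and 105 CPM in bulk, and the lens, endothelium and hatching gland lists were lower still in each library.

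**Figure D5:**
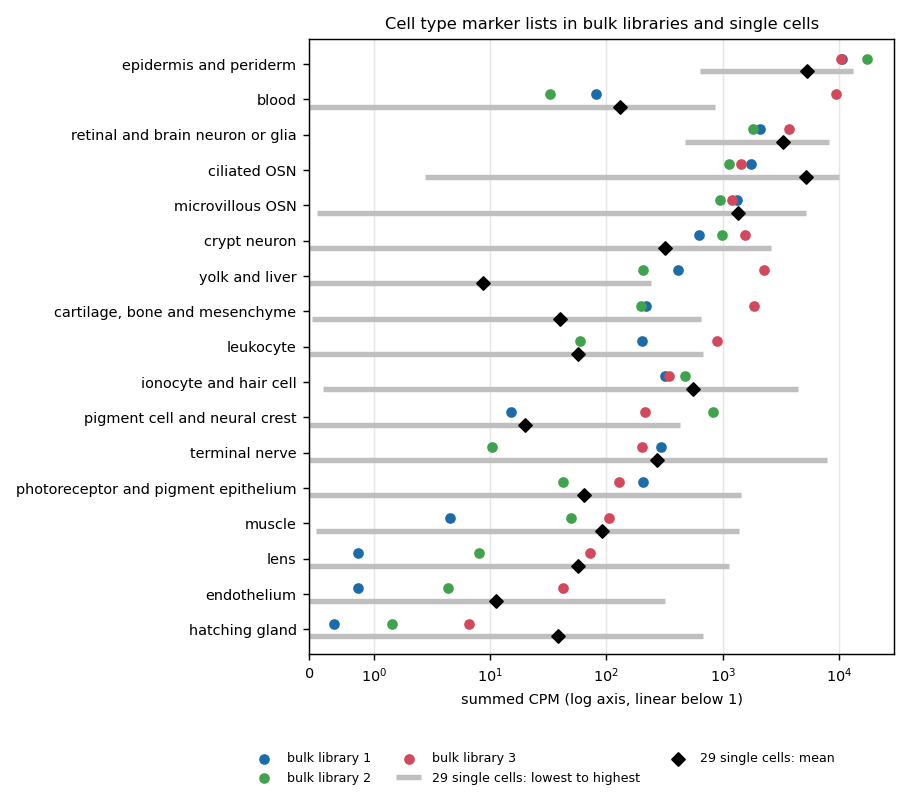
Summed CPM of 17 lists of cell type markers, ordered by their mean in bulk. Circles give each bulk library, the diamond below them the mean and the grey bar the range over the 29 single cells, on a log axis that is linear below 1 CPM; library 3 stands apart for blood, cartilage, bone and mesenchyme, and yolk and liver, and library 2 for pigment cells.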

How the data were processed

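RNA-seq of 3 bulk libraries and 47 single OSNs was deposited by the authors as raw read counts per gene in 1 table for each kind of library, which were matched on 29033 gene names. The authors trimmed reads and aligned them to GRCz10 with STAR; reads were assigned to genes with VERSE per the methods, whereas the submitters' processing notes name HTSeq, with CASAVA 1.8.2. The amplification of the bulk libraries is not settled, since the methods describe T7 amplification and the labels the SMARTer kit. Every per-sample column was used (0 unused). Groups were taken from the labels and the methods, and the receptor and clade of the 29 cells from the study.

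Counts were scaled to the library total (CPM) in Python 3.11.15 with numpy 2.4.6 and pandas. No test was run, as bulk libraries and cells have no shared preparation. A gene was counted as higher or lower at a 4-fold difference, with 1 CPM added, in each of 3 libraries, among genes at a mean of 10 CPM or more. The counting rule was run on simulated counts drawn around a single shared profile. These lack the spread between libraries and between cells, so they cannot tell how reliable the counts of higher and lower genes are. Counts on a gene at 0 allow up to 3 counts. edgeR 4.0.16 and DESeq2 1.42.0 gave scaling factors only. The genes named are or111-7 and ompb, the 30 with the best mean rank, the 6 leading members of each list, the 10 leading genes counted in each direction, the 10 with the largest range and the leading ORs with all or111 genes; adcy3b, ebf1b, elavl3, gap43, gng8, hpcal4, klf6a, krt5, ncalda, neurod1, neurog1, nhlh2, rps6kl1, six1b and the genes under the other observations that fall outside this rule were named after their values were seen. The members and gene lists were chosen with earlier results of these data known. The list of mitochondrial genome genes matched 0 genes. Sequences were not used here.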

Additional observations from a re-analysis of the deposited data

How the results depend on the processing

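The bulk libraries were numbered by accession only. No paired analysis was possible because the bulk libraries and the cells share no preparation or replicate and no test was run. Leaving out 1 bulk library in turn gave 1417 to 2671 genes counted as higher, the most without library 1, and 1864 to 2165 as lower, against 1289 and 1596 with all 3. The mean correlation between libraries was 0.758, and 0.714 to 0.833 with 1 library left out, 0.833 being without library 1; over genes at a mean of 10 CPM or more it was 0.556. The number of genes counted as higher was 2202 against the Fluidigm cells, 1756 against the ERCC cells, 859 against all 47 cells and 2211 against the 9 clade A cells. With 10 CPM added it was 367 higher and 765 lower, and with a mean of at least 50 CPM 604 higher and 881 lower. With DESeq2 size factors it was 706 higher and 5876 lower, and with TMM 493 and 9167. Chosen after seeing the data, centring on the median gene gave 2345 higher with TMM and 2551 with DESeq2, and the median of the cells in place of their mean gave 5629 higher and 4 lower, since most genes have a median near 0 over single cells. The cause of the other changes was not tested. As a share of all counted genes, higher genes made up 44.7% with all libraries and cells, and 58.9% without library 1.

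Relative to the median of all genes, on the log2 scale, the ribosomal sum was 3.15 higher in bulk and stayed between 0.82 and 3.61 under all alternatives run, odorant receptors between -3.32 and -0.78 and transduction genes between -2.08 and -0.46. Calcium-binding proteins (0.16 to 1.64), epidermis (0.25 to 2.0967) and adhesion genes (-1.59 to -0.20) kept their direction too. The chaperone sum was 0.51, but -1.04 against the Fluidigm cells and -1.18 against the clade A cells. The immature neuron sum was 0.96, but -0.28 and -0.36 against the same cells, and the progenitor sum was 1.41, but -0.0047 against the clade A cells. Leaving out the cell with the highest ribosomal sum, also chosen after seeing the data, gave a fold of bulk over cells of 9.58 for that sum, against 6.41 with all 29 cells. Levels per kilobase were not run, as transcript lengths were not used here. The depth of library 1, 2651985 counts, limits what can be seen of weakly expressed genes in it.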

Other observations

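A few genes were abundant in all 3 bulk libraries and nearly missing from every single cell; they were chosen after their values were seen. Of the 1039 genes with at least 100 CPM in each bulk library, 6 stayed under 1 CPM in each of the 47 cells. Of these 3 encode keratins of the skin: krt97 had 795, 542 and 205 CPM in libraries 1, 2 and 3, krt18 had 158, 741 and 336 CPM, and krt5 had 198, 374 and 193 CPM. Another was apoeb, an apolipoprotein, and the last 2, si:dkey-270m17.3 and si:ch211-195b11.4, carry no functional name in the files. They were even across the bulk libraries, at 623, 525 and 436 CPM for si:dkey-270m17.3 and 353, 530 and 514 CPM for si:ch211-195b11.4.

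In the other direction, of the 636 genes with at least 100 CPM in 10 or more of the 29 cells, 1 was under 10 CPM in all 3 bulk libraries. It was the entry dre-mir-96, a microRNA of sensory cells, with 0.754 CPM in library 1 and 0 counts in libraries 2 and 3, against a mean of 79.0 CPM in the cells, of which 18 reached 10 CPM.

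Among the genes uneven between bulk libraries, btd was high in library 1 alone, with 322, 0.480 and 11.3 CPM in libraries 1, 2 and 3 against 38.001 CPM in the cells. In library 3 the chemokine ccl34b.1 had 298 CPM, against 2.64 and 0.480 CPM in libraries 1 and 2, and the apolipoprotein apoc1l had 754 CPM, against 3.39 and 0.960 CPM.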
